A study of Mus musculus with 9 samples.

Results

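The comparison is of activated conventional dendritic cells type 2 (cDC2) that lack the transcription factors BATF and BATF3 with activated wild-type cDC2, described across all genes. It comprises 4 of the 9 arrays in the series: 2 of Batf-/- Batf3-/- cells (double knockout, DKO) and 2 of WT cells, chosen by the genotype, state and replicate number in the sample titles. All cells were sorted from the spleens of 129SvEv/Tac mice. Both genotypes carry the same treatment, which was IFN-gamma (100 ng/ml) for 1 h followed by 3 h with LPS of E. coli (1 µg/ml). Another 4 arrays, 2 of DKO and 2 of WT, are of resting cDC2, and 1 is of resting WT cDC1. Separate mice for each array, pooling of mice, and a shared animal or day behind a replicate number are not stated in the labels. P-values therefore reflect only how much these samples vary, possibly for technical reasons, and precision is limited by the small number of arrays.

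BATF and BATF3 are small basic leucine zipper proteins of the AP-1 family. They have no activation domain of their own, pair with JUN proteins at AP-1 sites, and with IRF4 or IRF8 at composite sites where an AP-1 and an IRF motif lie side by side. BATF3 is best known for its part in the development of cDC1, the subset that presents antigen to CD8 T cells. cDC2 mainly present antigen to CD4 T cells, develop without BATF3 and express IRF4. IFN-gamma followed by LPS drives them to mature and to make cytokines and chemokines.

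Values are log2 intensities, and a difference is DKO minus WT on the log2 scale, with its standard error (SE). Of 19938 genes, 10728 were bright enough to be tested. Limma was fitted as 2 models. A gene was called at a Benjamini-Hochberg adjusted p below 0.05, taken over the whole set of tested genes. The main one took the arrays of a group as free replicates. The other added the replicate number as a block, so that DKO replicate 1 is read against WT replicate 1; a call from it is named below as a call with the block. The main model called 2 genes lower in DKO (0.0186%) and 0 higher (0%), while 638 genes had an unadjusted p under 0.05. The block model called 31 genes lower (0.289%) and 30 higher (0.28%), with 1567 at an unadjusted p under 0.05. No gene was called in either model once any 1 of the 4 activated arrays was left out.

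Both DNA elements that BATF is known to use were searched for in the promoters of the 61 genes called with the block. The windows shown are those that hold a match. The AP-1 motif was TGANTCA on either strand, and the composite motif was GAAA directly before TGANTCA or TTTC 4 bases before it, within the 250 bases upstream of each RefSeq start site (GRCm38.p6). TGANTCA lay in 6 of the 28 lower genes with a promoter sequence (21.4%) and in 3 of 23 higher genes (13%), against 5.57% of the 8610 tested genes with one and 7.82% of all 27025 promoters. The composite motif, which contains TGANTCA, was in the Upp1 promoter and in no other called gene. It lay in 0.163% of promoters of tested genes and in 0.233% of all promoters. A match is a description of letters, not a site of binding, and no binding was measured in these samples. The Upp1 promoter is at chr11:9117758-9118007 on the + strand. The match lies 45 to 35 bases before the start site, and capitals mark the reverse complement of GAAA followed by TGANTCA.
Upp1 promoter: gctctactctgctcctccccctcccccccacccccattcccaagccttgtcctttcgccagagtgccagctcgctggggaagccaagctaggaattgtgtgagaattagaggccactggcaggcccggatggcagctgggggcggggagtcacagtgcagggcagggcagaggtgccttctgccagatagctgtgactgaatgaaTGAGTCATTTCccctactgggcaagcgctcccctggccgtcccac
The next windows show TGANTCA in capitals in 4 of the lower genes and in 2 higher ones, in the order Mmp12 (chr9:7347305-7347361, + strand), Mmp13 (chr9:7272454-7272510, + strand), Ms4a7 (chr19:11334745-11334801, - strand), Ezr (chr17:6782781-6782837, - strand), Olr1 (chr6:129507194-129507250, - strand) and Fblim1 (chr4:141606101-141606157, - strand). The first 4 are lower in DKO and the last 2 are higher.
Mmp12: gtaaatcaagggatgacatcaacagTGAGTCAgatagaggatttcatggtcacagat
Mmp13: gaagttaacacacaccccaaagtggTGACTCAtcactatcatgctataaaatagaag
Ms4a7: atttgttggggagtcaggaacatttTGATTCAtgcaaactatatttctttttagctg
Ezr: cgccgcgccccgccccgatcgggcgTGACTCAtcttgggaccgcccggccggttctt
Olr1: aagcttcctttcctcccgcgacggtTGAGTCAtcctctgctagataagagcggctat
Fblim1: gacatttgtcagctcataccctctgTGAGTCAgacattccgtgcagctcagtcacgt
The match begins 44 bases before the start site in Mmp12, 35 in Mmp13, 81 in Ms4a7, 32 in Ezr, 60 in Olr1 and 80 in Fblim1. Ddit3 and Emp1 are the other lower genes that hold it.

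The cells matched their label for several defining genes, but not for all. Sirpa, a surface receptor that marks cDC2, read 9.05 and 9.57 in activated DKO and 9.35 and 9.40 in activated WT arrays, and Irf4 read 10.38 to 11.02. Both are far lower in the cDC1 array, at 7.05 and 5.13. The cDC1 markers Xcr1 (4.42 to 4.73) and Clec9a (3.79 to 4.32) stayed below the brightness threshold of 5.94 in the 4 activated arrays, against 9.33 and 8.67 in the cDC1 array. Among 20 measured cDC2 markers, 6 were below the threshold in all 4 arrays, Cd209a, Clec10a, Clec4a4, Clec4a3, Ccr6 and Fcer1a. Of 19 measured cDC1 markers, 7 were below it in all 4 arrays, Xcr1, Clec9a, Itgae, Gcsam, Snx22, Rab7b and Septin3. The other cDC1 markers reached it in at least 1 array. One of these, Irf8, read 11.67 to 12.27 in the activated arrays, 7.64 to 8.46 in resting cDC2 and 9.94 in the cDC1 array.

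The targeted genes came first. Batf read 5.44 and 5.31 in activated DKO and 7.26 and 9.07 in activated WT, a difference of -2.79 ± 0.54 (SE) that passed neither threshold (limma, adjusted p = 0.457, and 0.0551 with the block). Both DKO arrays are below the brightness threshold of 5.94, and against it Batf was at least 4.68-fold lower. Batf3 read 6.65 and 6.90 in DKO and 8.56 and 9.92 in WT, and was called lower with the block (-2.47 ± 0.32, adjusted p = 0.0394; 0.451 without). Both genes are below WT in both DKO arrays, and the WT arrays differ from each other by more than 1 log2 unit, replicate 2 being the higher. Where the probes lie relative to the deleted parts is not given in the sources used here. Batf2, another member of the family, had 7.86 and 7.98 in DKO and 7.92 and 8.08 in WT. Of the IRF partners, Irf4 read 10.77 and 11.02 against 10.38 and 10.66, a difference of 0.38 ± 0.23. Irf8 read 12.27 and 11.67 against 12.06 and 11.73, a difference of 0.08 ± 0.33, whose sign turned to -0.22 without DKO replicate 1 and to -0.09 without WT replicate 2.

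Without the deleted genes, 15 of 18 members of the family list had a difference below 0, with a median of -0.19. Of these 18, 6 were lower without overlap (13.5% of all tested genes), 2 were higher (16.4%), and Bach1 and Atf3 were called with the block. Of all 20 members of the list of BATF, AP-1, small MAF and BACH genes with IRF4 and IRF8, 17 had a difference below 0 and 3 above. With Batf and Batf3 in it, the list had 8 lower members without overlap, 3 calls with the block and a median of -0.28, against 0.01 over all genes. Bach1, a heme-sensing repressor that pairs with small MAF proteins, read 8.11 and 7.44 in DKO and 9.17 and 8.48 in WT (-1.05 ± 0.09, adjusted p = 0.0309, limma with the block). Atf3, a stress-induced repressor of inflammatory genes, read 9.89 and 9.04 against 10.55 and 9.82, and its groups overlap unless arrays are read in pairs (-0.72 ± 0.08, adjusted p = 0.0342 with the block and 0.967 without). Jdp2, a BATF-like repressor named here after its value was seen, read 9.15 and 9.15 in DKO against 9.56 and 9.81 in WT, and missed the threshold (adjusted p = 0.0983, limma with the block). The main JUN partners moved less: the difference was -0.15 ± 0.12 for Jun, -0.18 ± 0.14 for Junb and 0.06 ± 0.11 for Jund.

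Some of these genes lie beside the deleted ones on the chromosome. Jdp2 is the next protein-coding gene to Batf on chromosome 12, and Fos, with a difference of -0.10, is the one beyond it. On the other side, Erg28, the second gene from Batf and a scaffold of sterol synthesis enzymes, read higher by 0.61 ± 0.19 (limma, adjusted p = 0.707, and 0.094 with the block). Atf3 is the second gene from Batf3 on chromosome 1. Between them lies Fam71a, with a difference of -0.66 ± 0.26 (limma, adjusted p = 0.778, and 0.0518 with the block). Among the 10 genes on each side of Batf3, 15 were tested, 8 were lower with no overlap, 3 were higher with no overlap (13.5% and 16.4% of all tested genes), and the median was -0.15. Among the neighbours of Batf, 13 were tested, with 2 lower and 2 higher without overlap and a median of 0.06. Whether DNA carried along with the deleted alleles had a part in these values was not tested.

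**Figure D1:**
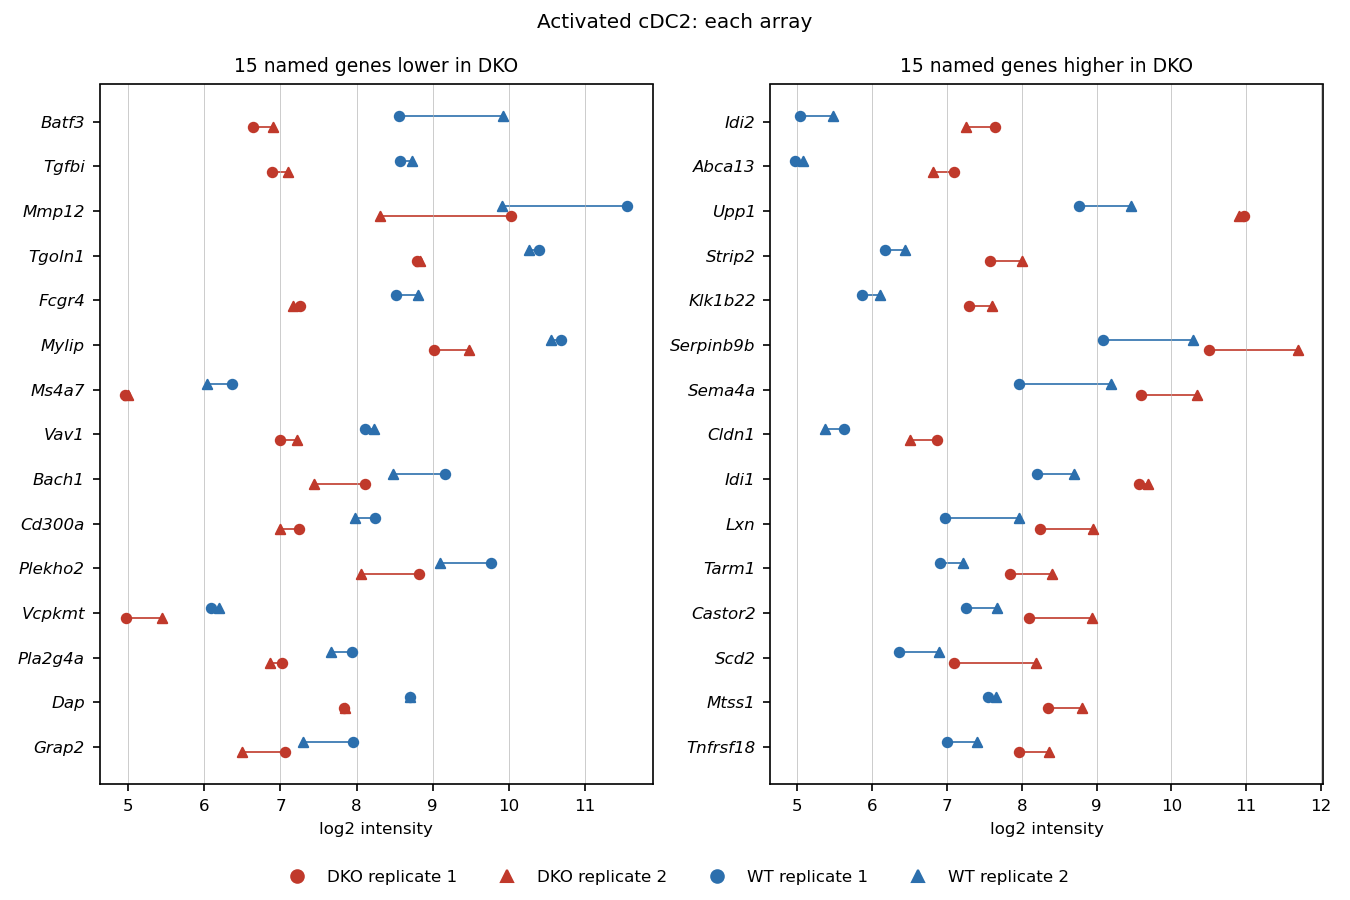
Log2 intensity (x axis) in each activated array for the 15 largest decreases and 15 largest increases that limma called with the replicate block and that carry a gene name; circles are replicate 1, triangles replicate 2, red DKO and blue WT, and a line joins the arrays of a group. The arrays of Tgfbi and Tgoln1 lie close together within each genotype and far apart between them, while Mmp12 differs between replicate numbers by more than between genotypes and its groups overlap.

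Tgfbi and Tgoln1 were the 2 genes called without the block. Tgfbi codes for an extracellular matrix protein induced by TGF-beta. It read 6.89 and 7.09 in activated DKO and 8.57 and 8.73 in activated WT, and fell by 1.66 ± 0.11, to 0.317 of the WT level (limma, adjusted p = 0.0202, and 0.00755 with the block). Tgoln1, a protein that cycles between the trans-Golgi network and the cell surface, read 8.80 and 8.83 against 10.39 and 10.27, and fell by 1.52 ± 0.10 (adjusted p = 0.0202, limma without block). In both genes the gap between genotypes is several times the gap between arrays of a genotype, and the same-numbered pairs give nearly the same difference. Without 1 of the 4 activated arrays, the adjusted p of limma rose to between 0.174 and 0.401 for Tgfbi and between 0.188 and 0.401 for Tgoln1, with the direction kept.

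The other lower calls rest on the block. Of the 61 calls in both directions, 55 had arrays that did not overlap between genotypes, against 13.5% of all tested genes lower and 16.4% higher. The remaining 6 overlap unless read in pairs: Mmp12, Ms4a6d, Ccl3, Atf3, Ezr and Olr1. In limma without the block, 47 of the 61 had an unadjusted p under 0.05, against 638 of all 10728 tested genes. The 61 were chosen for their difference in these same arrays, which favours both counts. The differences ran from -0.61 to -2.47 among lower calls (median -0.83) and from 0.56 to 2.19 among higher calls (median 0.92).

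**Figure D2:**
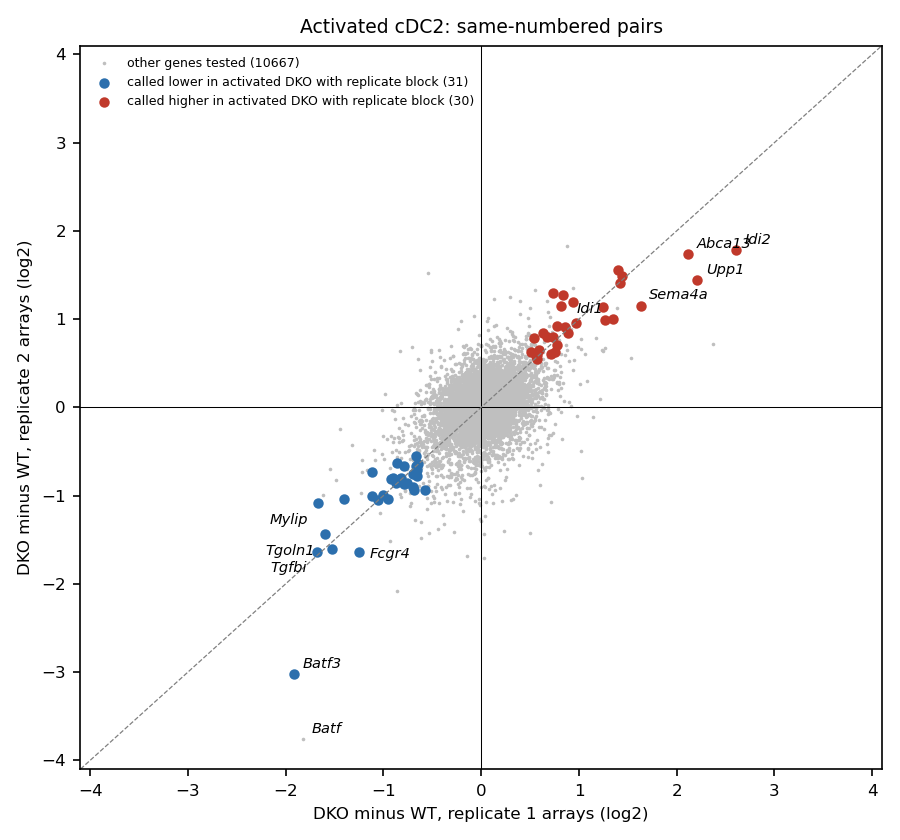
Difference between DKO and WT in the replicate 1 arrays (x axis) against that in the replicate 2 arrays (y axis), both in log2 units, for the 10728 genes tested; blue and red points are the 31 lower and 30 higher genes called with the replicate block. All 61 called genes lie in the lower left or upper right quadrant, most of them near the dashed line of equal values, as the block model selects for, and Batf lies below that line.

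Fcgr4, the activating receptor for IgG2 antibodies, read 7.26 and 7.17 in DKO and 8.51 and 8.80 in WT (-1.44 ± 0.17, adjusted p = 0.0386, limma with the block). Cd300a, an inhibitory receptor, read 7.24 and 6.99 against 8.25 and 7.98 (-1.0 ± 0.12, adjusted p = 0.0375 with the block). Ms4a7, a tetraspan protein of the MS4A family, read 4.95 and 5.0 against 6.36 and 6.04 (-1.22 ± 0.15, adjusted p = 0.0386 with the block), so that it was below the brightness threshold in both DKO arrays and, against that threshold, at least 1.20-fold lower than in WT. For these 3 genes the genotypes do not overlap. A few more lower calls, named after their values were seen, had a smaller difference: Cd300c2 at -0.68, Ms4a6d at -0.82 and Mpeg1, the pore-forming perforin-2, at -0.75. Members of the MS4A and CD300 families are alike in sequence, and whether probes of 1 member read another was not tested.

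Of 11 tested genes in the list of Fc receptors and their partners, 8 were lower without overlap (13.5% of all tested genes) and 0 were higher (16.4%), and the median was -0.31. Beside both called members, Fcer1g, the signalling chain shared by activating Fc receptors, read 9.73 and 9.81 against 9.93 and 10.26 (-0.33 ± 0.15). Syk, the kinase that acts below that chain, read 8.43 and 8.50 against 8.74 and 8.81 (-0.31 ± 0.13). Neither passed the threshold. Fcrl1 was the member above 0, at 0.29 ± 0.43.

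Several of these genes also mark monocytes and macrophages. Among 13 tested monocyte markers, 8 were lower without overlap and 0 higher, against 13.5% and 16.4% of all tested genes, with a median of -0.35. Ms4a7 and Fcgr4 belong to this list and were its 2 calls (0.289% of all tested genes were called lower). Among 14 tested macrophage markers, 7 were lower without overlap and 0 higher, with a median of -0.39 and no call with the block. C1qb, a chain of complement C1q named here after its value was seen, read 6.33 and 6.17 in DKO and 7.17 and 7.04 in WT (-0.85 ± 0.20, limma, adjusted p = 0.559, and 0.0589 with the block). The intensities of 19 measured macrophage markers summed to 2608 and 2508 in DKO and 3264 and 3272 in WT, and those of 17 monocyte markers to 6586 and 5449 against 7110 and 8421. Ccr2, F13a1 and Chil3 among monocyte markers, and Cd5l, Mertk, Mrc1, Cd163, Slc40a1 and Marco among macrophage markers, were below the brightness threshold in all 4 arrays. The part of such cells in the lower calls was not tested, and fewer cells of a type and less RNA per cell cannot be told apart in sorted bulk samples.

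Other lower calls, set side by side here only for reading and not as a tested group, include Mmp12, Pla2g4a, Mmp13 and Ccl3. Mmp12, the macrophage metalloelastase, read 10.03 and 8.30 in DKO and 11.56 and 9.91 in WT (-1.57 ± 0.21, adjusted p = 0.044 with the block, and 0.932 without). Both pairs differ by about the same amount, while replicate 1 is higher than replicate 2 in both genotypes. Pla2g4a, the cytosolic phospholipase that frees arachidonic acid, read 7.02 and 6.86 against 7.95 and 7.67 (-0.87 ± 0.11, adjusted p = 0.0391 with the block). Mmp13, a collagenase chosen after its value was seen, read 5.83 and 5.73, both below the brightness threshold, against 6.50 and 6.48. Mmp13 entered the test only through activated WT (group mean 6.49), so filter and test used the same high values. Ccl3, an inflammatory chemokine, read 10.75 and 9.06 against 11.54 and 9.73 (-0.73 ± 0.09, adjusted p = 0.0386 with the block, and 1 without). Its sign turned positive, to 0.11 without DKO replicate 2 and to 0.18 without WT replicate 1, in the model without the block.

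Vav1, a signalling protein of immune receptors, read 7.0 and 7.22 in DKO and 8.11 and 8.22 in WT (-1.06 ± 0.11, adjusted p = 0.0309, limma with the block). Grap2, the adaptor GADS, read 7.06 and 6.50 against 7.96 and 7.30 (-0.85 ± 0.08, adjusted p = 0.0309). Dap, a regulator of autophagy and cell death, read 7.83 and 7.85 against 8.70 and 8.70, with the arrays of each genotype within 0.02 of each other (-0.86 ± 0.08, adjusted p = 0.0309, limma with the block, and 0.169 without). Plekho2, a pleckstrin-homology protein, read 8.82 and 8.06 against 9.77 and 9.10, and Vcpkmt, a lysine methyltransferase, 4.97 and 5.45 against 6.08 and 6.19. Both DKO arrays of Vcpkmt are below the brightness threshold, and against that threshold it was at least 1.15-fold lower. Tgfbr1, the type I TGF-beta receptor, read 7.92 and 7.39 against 8.59 and 8.05 (-0.66 ± 0.09, adjusted p = 0.0394 with the block).

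With Tgfbi, Tgfbr1 was 1 of 2 called members of the TGF-beta list, in which 6 of 16 tested genes were lower without overlap, 2 were higher (13.5% and 16.4% of all tested genes), and the median was -0.22. Tgfbr2, the type II receptor, had a difference of -0.30 ± 0.08 and Smad2, Smad3 and Smad4, which carry the signal, lay between -0.04 and 0.03. The list's median was -0.01 to -0.29 over the alternatives.

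The remaining lower calls, named after their values were seen, cover several functions. Emp1 is an epithelial membrane protein (-0.83), Ezr is ezrin, which links membrane to actin (-0.73), and Pltp is the phospholipid transfer protein (-0.65). Ddit3, the stress factor CHOP, had a difference of -0.61, and Tent5c, a poly(A) polymerase, -0.75. Rgl1, Thap6, Mir342 and Gm10791 had differences between -0.80 and -0.81. Gm10791 entered the test only through activated WT (group mean 6.22), so filter and test used the same high values.

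Among genes called higher, sterol synthesis came first. Idi2 and Idi1 code for isopentenyl-diphosphate isomerases, which make the second building block of isoprenoids. Idi2 read 7.64 and 7.26 in DKO and 5.04 and 5.48 in WT (measured difference 2.19 ± 0.28, adjusted p = 0.0391, limma with the block, and 0.382 without). Both WT arrays are below the brightness threshold, so Idi2 was at least 2.85-fold higher in DKO, taken against that threshold. Idi1 read 9.56 and 9.69 against 8.21 and 8.69 (1.18 ± 0.11, adjusted p = 0.0309 with the block). Neither gene overlaps between genotypes. Both are close relatives that lie side by side, and whether probes of one read the other was not tested.

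Every measured enzyme of the mevalonate and cholesterol pathway had a value above 0. Of 21 enzymes listed, 18 had a cluster with 1 gene name and all of those were tested; the others were not analysed here. The arrays did not overlap in 15 of 18 (83.3%, against 16.4% of all tested genes), all higher in DKO, and 0 were lower. The median difference was 0.42, against 0.01 over all genes, with 0.45 in pair 1 and 0.43 in pair 2, and between 0.38 and 0.52 over the alternatives. The 2 isomerases were the calls with the block. Hsd17b7, which acts late in the pathway, read 8.39 and 8.43 against 7.77 and 7.59 and missed the threshold (0.73 ± 0.11, limma, adjusted p = 0.424, and 0.0508 with the block). Lss, which closes the sterol ring, read 6.70 and 6.84 against 5.92 and 6.16, and Sqle, the squalene epoxidase, 9.05 and 9.30 against 8.57 and 8.47. Hmgcs1, at the top of the pathway, read 10.42 and 10.48 against 9.99 and 10.13. The smallest difference was that of Tm7sf2, at 0.18 ± 0.28. In resting cells the list's median was 0.38.

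**Figure D3:**
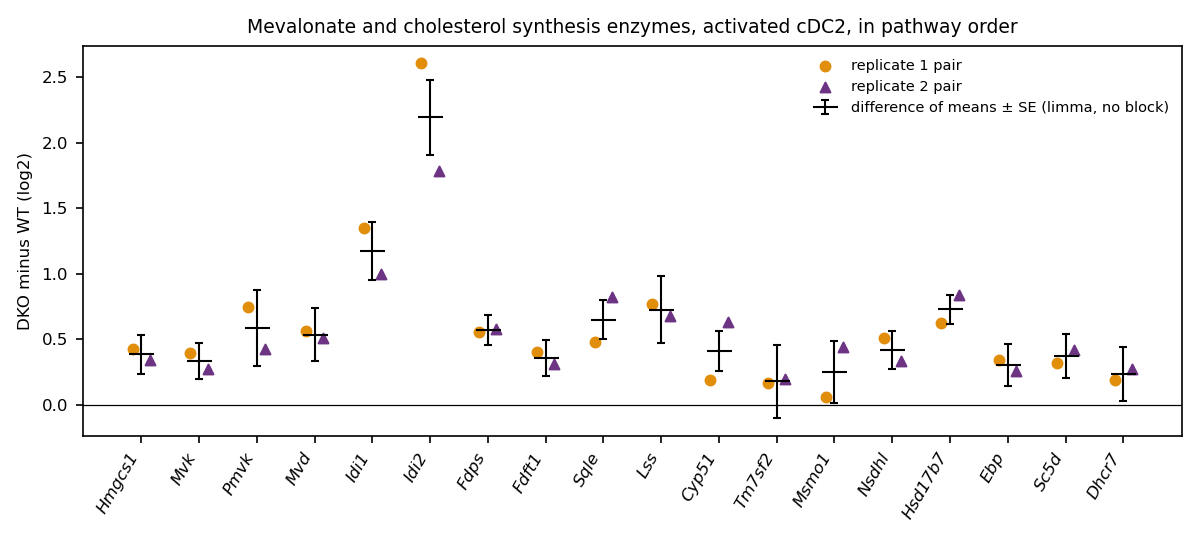
Difference between DKO and WT in activated cDC2 (log2, y axis) for the 18 tested enzymes of the mevalonate and cholesterol pathway, from the first on the left to the last on the right; circles and triangles are the replicate 1 and replicate 2 pairs, bars the difference of means ± SE from limma without block. All values of both pairs lie above 0, with Idi1 and Idi2 standing out from the others.

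The wider sterol and lipid lists are read against the same 16.4% of tested genes higher and 13.5% lower without overlap. Of 10 genes of SREBP2 control and sterol uptake, 3 were higher without overlap, 1 was lower, 0 were called and the median was 0.00. SREBP2 is the factor that drives the enzymes above when sterols are low. Its gene Srebf2 had a difference of 0.16 ± 0.10, Insig1, which holds it back, 0.10 ± 0.15, and Stard4, a sterol carrier and known target, 0.41 ± 0.10 (limma, adjusted p = 0.573). Npc1, which exports cholesterol from lysosomes, lay at -0.51 ± 0.18. The sterol response motif TCACNCCAC, searched on both strands of the same windows, was in 1 of 15 pathway promoters (Hmgcs1, 6.67%) and in 1.17% of those of tested genes. A search that allows no other letters finds few such elements, and no match says nothing of the factor.

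Both called members of the LXR list moved in opposite directions. LXR receptors sense oxysterols and turn on sterol export and fatty acid desaturation. Mylip, the ubiquitin ligase that removes the LDL receptor, read 9.02 and 9.47 in DKO and 10.68 and 10.56 in WT (-1.38 ± 0.16, adjusted p = 0.0375, limma with the block, and 0.382 without). Scd2, a stearoyl-CoA desaturase, read 7.09 and 8.19 against 6.35 and 6.89 (1.02 ± 0.14, adjusted p = 0.044 with the block). The genotypes of both genes do not overlap. Of 11 tested genes in this list, 2 were higher and 3 lower without overlap, with a median of -0.06. Abcg1, a sterol exporter, was at -0.49 ± 0.31 and Nr1h3, LXR-alpha itself, at -0.24 ± 0.26. In the fatty acid list 3 of 9 were higher without overlap, 1 was lower and 0 were called, with a median of 0.29. Acly, which supplies cytosolic acetyl-CoA, read 8.89 and 8.88 against 8.39 and 8.44 (0.47 ± 0.16, limma, adjusted p = 0.739), and malic enzyme Me1 was at -0.33 ± 0.12.

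Upp1, the uridine phosphorylase that splits uridine into uracil and ribose phosphate, had one of the largest increases with the block. It read 10.98 and 10.90 in DKO and 8.76 and 9.46 in WT, 3.54 times the WT level (1.83 ± 0.22, adjusted p = 0.0375, limma with the block, and 0.382 without). In resting cells it read 7.37 and 7.16 in DKO and 5.39 and 5.80 in WT, so that the genotypes stand apart in both states and each is brighter after activation. Both resting WT arrays are below the brightness threshold, and against that threshold Upp1 was at least 2.51-fold higher in resting DKO. Upp1 is the gene whose promoter holds the composite motif. The rest of the pyrimidine list held no call. Of 11 tested, 3 were higher and 2 lower without overlap, with a median of 0.09, and Uck2, which phosphorylates uridine, was at 0.41 ± 0.72.

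Abca13, a large ABC transporter, read 7.09 and 6.81 in DKO and 4.97 and 5.08 in WT (measured difference 1.93 ± 0.26, adjusted p = 0.044 with the block). WT is below the brightness threshold, and against that threshold Abca13 was at least 2.02-fold higher in DKO. Abca13 entered the test only through activated DKO (group mean 6.95), so filter and test used the same high values. Serpinb9b, an intracellular serpin, read 10.50 and 11.70 against 9.08 and 10.29 (1.41 ± 0.15, adjusted p = 0.0309 with the block), with replicate 2 higher in both genotypes. Lxn, an inhibitor of carboxypeptidases, read 8.24 and 8.95 against 6.98 and 7.96. Klk1b22, a kallikrein, read 7.30 and 7.60 against 5.86 and 6.11 (1.47 ± 0.20, adjusted p = 0.044 with the block). Serpinb9 and kallikrein genes form large families of near copies, and which members the probes read was not tested.

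Sema4a, a semaphorin that co-stimulates T cells, read 9.59 and 10.35 in DKO and 7.96 and 9.19 in WT (1.39 ± 0.17, adjusted p = 0.0386 with the block, and 0.773 without). Cldn1, the tight junction protein claudin-1, read 6.87 and 6.51 against 5.62 and 5.37 (measured difference 1.19 ± 0.11, adjusted p = 0.0309 with the block), and with WT below the threshold it was at least 1.68-fold higher. Tarm1, an activating receptor of myeloid cells, read 7.85 and 8.40 against 6.91 and 7.21, and Tnfrsf18, the co-stimulatory receptor GITR, 7.96 and 8.36 against 7.0 and 7.41. None of these overlaps between genotypes. Mtss1, which bends membranes at the actin cortex, read 8.35 and 8.81 against 7.54 and 7.66. Castor2, a relative of the arginine sensor of mTORC1, read 8.09 and 8.94 against 7.25 and 7.67, and Strip2, a scaffold of phosphatase complexes, 7.57 and 8.0 against 6.17 and 6.44.

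The remaining higher calls were named after their values were seen. Stat4, which carries IL-12 and type I interferon signals, read 10.36 and 10.67 in DKO and 9.69 and 9.87 in WT (0.74 ± 0.10, adjusted p = 0.0394, limma with the block). Rbl2, the pocket protein p130, was at 0.85 and Cks1b, a subunit of cyclin-dependent kinases, at 0.87. Olr1, the receptor for oxidised LDL, was at 0.77, Dstn, which severs actin, at 0.74, Fblim1, an adhesion protein, at 0.66, and Anxa3, an annexin of the maturation list, at 0.56. The others were Tex30, Emc2, Elp4, Fam136a, Snord38a, Kcnk6, Rpl10a and Avpi1, between 0.57 and 0.88.

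The lists of antiviral genes, IFN-gamma GTPases and cytokines held no call with the block, the chemokine list held Ccl3 and the maturation list Anxa3. Without overlap, 13.5% of all tested genes were lower and 16.4% higher. Of 27 antiviral interferon-stimulated genes, 8 were lower and 0 higher without overlap, with a median of -0.15. That median was 0.04 in pair 1 and -0.35 in pair 2, and ranged from -0.55 to 0.22 when 1 array was left out. Ifit2, an inhibitor of viral translation, read 11.98 and 11.51 in DKO and 12.23 and 12.13 in WT (-0.44 ± 0.36, limma, adjusted p = 1). Cmpk2, a mitochondrial nucleotide kinase, was at -0.51 ± 0.57 and turned to 0.12 without DKO replicate 2. Of 14 IFN-gamma GTPases and regulators, 7 were lower and 1 was higher without overlap, with a median of -0.16. Cd274, the inhibitory ligand PD-L1, read 11.51 and 11.61 against 11.91 and 11.94 (-0.37 ± 0.09, limma, adjusted p = 0.592), and Irf1 9.91 and 9.95 against 10.45 and 10.18.

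Cytokine genes lay close to the WT levels for the best known products. Il12b, the shared subunit of IL-12 and IL-23, read 10.66 and 10.85 in DKO and 10.93 and 10.59 in WT. Il6 read 9.65 and 9.52 against 9.44 and 9.59, and Tnf 11.78 and 10.84 against 12.08 and 11.06, with a larger gap between replicate numbers than between genotypes. Of 16 cytokines tested, 2 were higher, Tnfsf15 among them (0.55 ± 0.19, limma, adjusted p = 0.742), and 2 lower without overlap, Il27 among them (-0.38 ± 0.13, adjusted p = 0.734). The list's median was 0.06. Of 15 chemokines 4 were lower and 1 was higher without overlap, with a median of -0.16; the higher one was Ccl22, which attracts CCR4 cells, at 0.41 ± 0.09 (limma, adjusted p = 0.517). Differences of this size could not be told from 0 with 2 arrays a group, which does not show that the genes are unaffected.

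For the lists of maturation and antigen presentation genes, the shares over all tested genes are again 13.5% lower and 16.4% higher without overlap. Cd40, Cd80 and Cd86, which co-stimulate T cells, had differences of 0.02 ± 0.37, 0.06 ± 0.12 and 0.06 ± 0.08. Ccr7, which guides dendritic cells to lymph nodes, had 0.09 ± 0.20. Of 23 genes in that list, 4 were higher and 3 lower without overlap, with a median of 0.06. Cd70, the ligand of CD27, stood apart from the list and is named after its value was seen: it read 9.95 and 10.30 in DKO and 8.55 and 9.17 in WT (1.26 ± 0.33, limma, adjusted p = 0.592, and 0.157 with the block). Of 14 MHC class II genes, 6 were lower and 0 higher without overlap, with a median of -0.15. H2-Eb1 read 12.86 and 12.61 against 13.08 and 12.93, and the protease gene Ctsb 10.89 and 10.96 against 11.49 and 11.41 (-0.53 ± 0.09, limma, adjusted p = 0.451). Of 16 MHC class I genes, 0 were higher and 1 was lower without overlap, with a median of -0.10. There, Pdia3 was at -0.17 ± 0.16 and Erap1 at -0.19 ± 0.19, the latter turning to 0.044 without WT replicate 1.

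Receptors that sense microbes, NF-kappaB and lineage factors held no call, and their counts without overlap stand against 13.5% of all tested genes lower and 16.4% higher. Of 17 Toll-like and C-type lectin receptors, 4 were lower and 1 was higher without overlap, with a median of -0.20. Tlr9, the sensor of CpG DNA, read 10.46 and 10.71 in DKO and 10.92 and 11.38 in WT (-0.57 ± 0.29, limma, adjusted p = 0.91, and 0.0966 with the block), and Clec12a 5.92 and 5.76 against 6.81 and 6.41. Both DKO arrays of Clec12a are below the brightness threshold, and against that threshold it was at least 1.59-fold lower. Of 17 NF-kappaB genes, 3 were higher and 2 lower without overlap, with a median of -0.02, and Traf1 was at -0.14 ± 0.10. Of 28 dendritic cell transcription factors, 4 were higher and 5 lower without overlap, with a median of -0.10. Zeb2, a factor of the cDC2 and monocyte lineages, was at -0.29 ± 0.13 and Cebpa at 0.43 ± 0.19. Of 25 immediate early and dissociation genes, 3 were lower and 0 higher without overlap, with a median of -0.12 and Atf3 as the call.

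Among growth and fuel genes, 8 of 26 cell cycle genes were higher and 2 lower without overlap, against 16.4% and 13.5% of all tested genes, with a median of 0.09. Cdk2 read 7.66 and 7.85 in DKO against 7.26 and 7.13 in WT (0.56 ± 0.15, limma, adjusted p = 0.614), and Mcm3 was at -0.22 ± 0.10. Of 16 glycolysis genes, 4 were higher and 4 lower without overlap, with a median of 0.00 and no call. The hexokinase gene Hk3 read 7.72 and 7.59 in DKO against 8.75 and 8.79 in WT. Its difference was -1.11 ± 0.21 (limma, adjusted p = 0.457, and 0.0568 with the block), while Hk1 was at 0.24 ± 0.09.

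**Figure D4:**
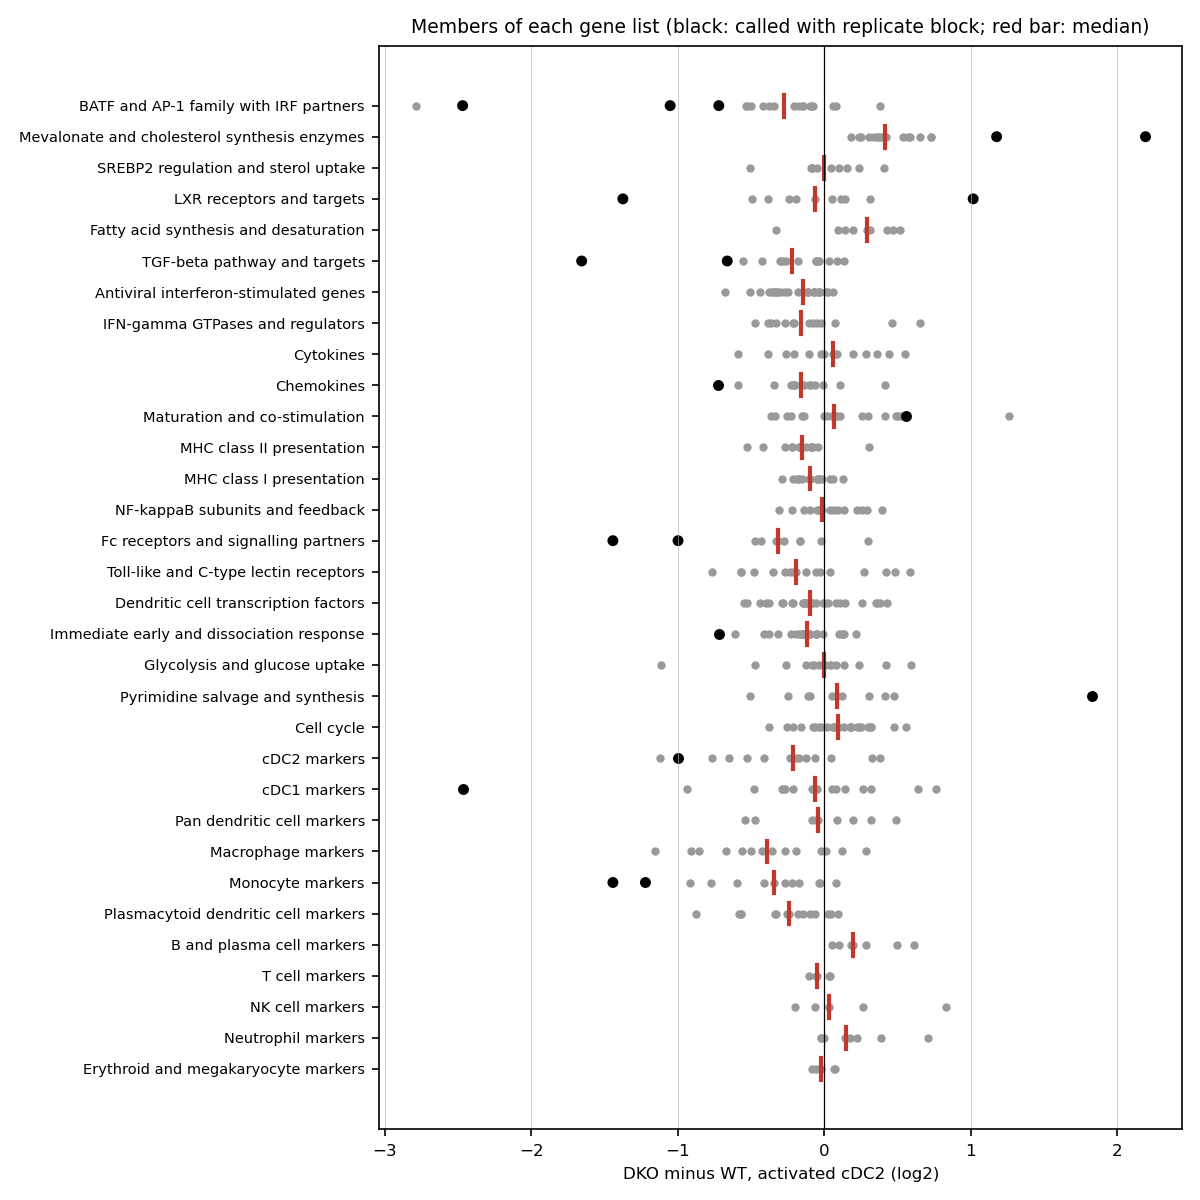
Difference between DKO and WT in activated cDC2 (log2, x axis) for each tested member of each gene list; grey points were not called, black points were called with the replicate block, and the red bar is the list's median. The 18 mevalonate enzymes lie above 0, while the Fc receptor, monocyte and macrophage lists have medians from -0.31 to -0.39. The AP-1 list's median of -0.28 includes the deleted Batf and Batf3, and is -0.19 without them.

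Marker lists of cDC and of other cells were read in the same way, against 13.5% of all tested genes lower and 16.4% higher without overlap. Of 14 tested cDC2 markers, 7 were lower and 1 was higher without overlap, with a median of -0.21 and Cd300a as the call. Mgl2, a lectin of cDC2 named after its value was seen, read 4.95 and 5.42 in DKO and 6.50 and 6.12 in WT. Its DKO arrays are below the brightness threshold, and against that threshold it was at least 1.29-fold lower. Of 18 cDC1 markers, 7 were lower and 2 were higher, with a median of -0.06. The 7 include Batf3, the call, which is a deleted gene, so its place there was set by the genotype. Of 9 pan dendritic cell markers 1 was higher and 1 lower, with a median of -0.04. Of 15 plasmacytoid markers 7 were lower and 1 was higher, with a median of -0.24, and Siglech was below the threshold. The lists of T cells (5 tested), B and plasma cells (7), NK cells (5), neutrophils (9) and erythroid cells (5) had medians between -0.05 and 0.20. Cd3d, Cd79a, Ms4a1, Ncr1 and Ly6g were below the threshold in all 4 arrays.

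The resting arrays, which share no array with the comparison, allow the direction of each call to be read again. All 61 genes called with the block had the same sign of the mean difference in resting cDC2, against 7476 of all 10728 tested genes (69.7%). All 61 also kept that sign in both resting pairs. The share over all genes was not taken for that count, so it has no background to be read against. The block model used the resting arrays to estimate the replicate effect and the spread, which favours genes whose resting pairs agree. Fitted on the activated arrays alone it called 44 genes (0.41%), and those too all had the same sign at rest; 32 were among the 61. The labels do not say whether resting and activated samples came from the same animals. In resting cells limma with the block called 79 genes (0.736%), of which 33 were among the 61. Tgfbi read 7.70 and 7.63 in resting DKO against 9.61 and 9.57 in resting WT, and Tgoln1 8.71 and 8.75 against 10.31 and 10.13.

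For 49 of the 61 genes the difference was larger in activated than in resting cells, 25 lower and 24 higher. The 61 were chosen for their activated difference, which favours this count: it was 50.4% over all tested genes and 26.6% (21 of 79) over genes called at rest. Mmp12 had -1.57 in activated and -0.62 in resting cells. Fcgr4 had -1.44 in activated cells, and at rest both DKO arrays were below the brightness threshold. A test of the change between states found none of this beyond the spread. The interaction was called for 0 genes without the block (0%, limma, 121 genes at an unadjusted p under 0.05) and for 0 with it (0%, 368 genes). The 5 smallest p-values belonged to Sucnr1, Arc, Gprc5c, Plpp2 and Cxcl11. Sucnr1, the succinate receptor, differed by 1.39 at rest and by 0.22 when activated, and Cxcl11, an interferon-induced chemokine, by -1.51 and -0.16 (limma, adjusted p = 1 for both). Gprc5c changed sign, from -0.66 at rest to 0.43 when activated. All activated Sucnr1 values were below the brightness threshold (5.67 and 5.44 in DKO, 5.27 and 5.39 in WT), so 0.22 is a difference between dim values. At rest both DKO arrays were below that threshold for Cxcl11 (5.79 and 5.70) and for Gprc5c (5.80 and 5.54).

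**Figure D5:**
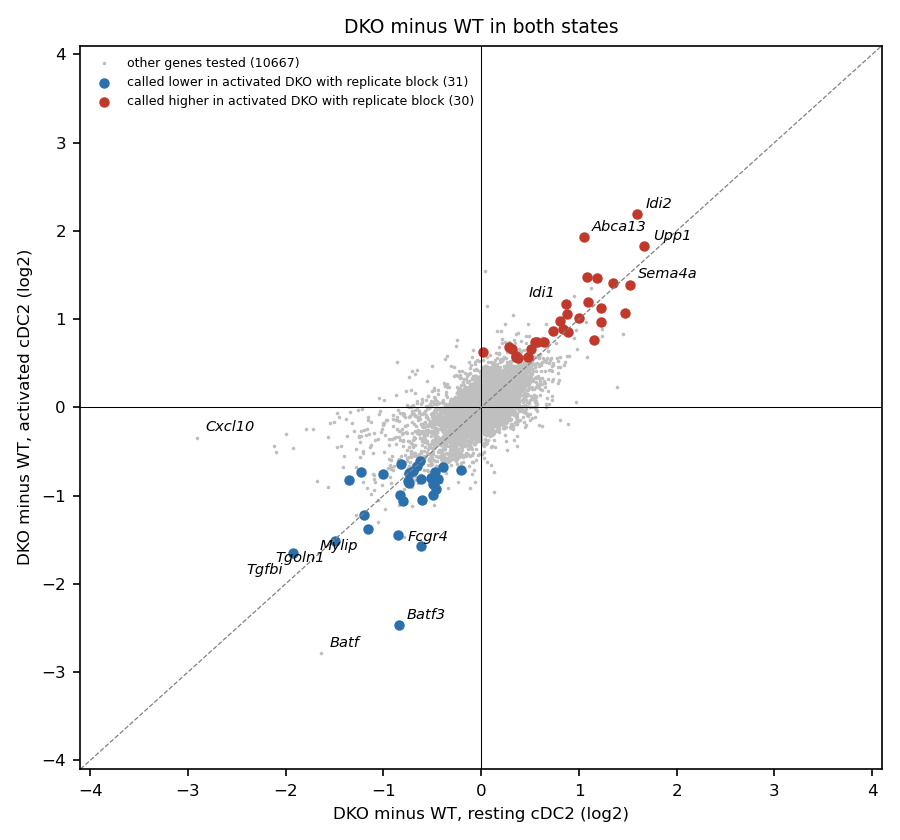
Difference between DKO and WT in resting cDC2 (x axis) against that in activated cDC2 (y axis), in log2 units, for the 10728 genes tested; blue and red points are genes called with the replicate block in activated cells. The called genes lie on the same side of 0 in both states, and interferon-induced genes such as Cxcl10 reach -2.91 at rest but -0.34 in activated cells.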

How the data were processed

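RNA from sorted cDC was hybridised to 9 Affymetrix gene arrays and, per the submitters' processing notes, summarised by RMA in Expression Console. The table the authors deposited gives a linear intensity for each transcript cluster, already brought to a shared distribution (array medians 53.4 to 55.6), so a difference in total RNA is not visible. Log2 was taken here. Of 28853 clusters, 21789 carried 1 gene symbol; the brightest cluster stood for each gene. Genes with a group mean above 61.3 on the linear scale in any group entered a two-sided test in limma 3.58.1 (R 4.3.3), on all 9 arrays with 5 group means (4 residual degrees of freedom), and again on the 8 cDC2 arrays with the replicate number as a block. The labels do not say that the number marks a shared animal or day. Deviations of same-numbered arrays correlated at r = 0.454 to 0.695 over the 6 pairs of cDC2 groups, so the paired result is printed beside the main one. Fits were tested on simulated data with independent noise in each array and no replicate effect. That test therefore does not cover arrays whose deviations correlate as these do.

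Named genes are the BATF family with Irf4 and Irf8, calls without the block, the 15 largest calls with the block in each direction, up to 4 called members per list (otherwise the 2 of smallest p) and the 5 smallest interaction p-values; other genes were chosen after their values were seen. The comparison, its gene lists and the alternatives were chosen with earlier results of these data known. Promoter sequences are RefSeq's, GRCm38.p6.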

Additional observations from a re-analysis of the deposited data

How the results depend on the processing

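Without the block, 0 genes were higher under every alternative that also had no block. The 2 lower calls were made again with no filter on dim genes, a stricter filter, quantile normalization, median centring, the mean of clusters, trend and robust eBayes, and log2(value + 32). There were 0 lower calls on activated arrays alone, and 0 to 0 when 1 activated array was left out. The replicate block gave 30 higher and 31 lower genes, and 19 and 25 on activated arrays alone. Added after seeing the data, further changes to the block model gave 8 and 10 genes with no filter, where 19938 genes share the adjustment, and 0 to 0 without 1 activated array. The others gave 20 to 34 higher and 25 to 37 lower genes. Leaving out 1 activated array in turn moved the difference of Ccl3 from -1.63 to 0.18 (positive also at 0.11 without DKO replicate 2), that of Cmpk2 from -1.14 to 0.12, that of Erap1 from -0.42 to 0.044 and that of Irf8 from -0.22 to 0.38 (negative also at -0.09 without WT replicate 2); the cause was not tested. Of list medians under alternatives, 356 stayed within the spread between pairs and 90 moved beyond it. The stricter filter left no T cell or erythroid marker to give a median. The median over all genes stayed between -0.01 and 0.04. With 2 arrays a group, the number of arrays is what limits precision.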

Other observations

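Clusters with several gene names or none were tested apart: of 2773 above the brightness threshold, limma called 0 in activated cells without the block and 0 with it, and 217 had an unadjusted p under 0.05 without it. They are given without names.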
